A study of Homo sapiens with 4 samples.

Results

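The genes described here are the receptors by which lipid and oxysterol ligands position B cells in and around follicles: the sphingosine 1-phosphate (S1P) receptors S1PR1, S1PR2, S1PR3 and S1PR4, P2RY8, the oxysterol receptor GPR183 (also called EBI2) and the thromboxane receptor TBXA2R. They were chosen by name, 7 of the 25066 genes with deposited values. Their mRNA was measured by RNA sequencing in NUDUL1, a human cell line from a diffuse large B cell lymphoma of the germinal center B cell type. The cells were a single-cell clone with doxycycline-inducible Cas9, carried a retroviral Tbxa2r construct, and expressed either a control sgRNA or an sgRNA against GNA13, with 1 sgRNA per genotype. Both genotypes were grown in advanced RPMI with 4% FBS and were given 10 nM U46619, a stable thromboxane A2 analog that activates TBXA2R, for 24 h, so no library came from cells without the agonist. There were 2 libraries labelled control and 2 labelled GNA13-deficient, treated as duplicates. Nothing states that the duplicates were grown apart, so the p values measure the spread between these libraries, which may be technical.

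These receptors sit in the membrane and signal through heterotrimeric G proteins. S1PR1 couples to Gαi and draws lymphocytes toward S1P-rich lymph, whereas S1PR2 and P2RY8 couple to Gα13, the product of GNA13, and hold germinal center B cells in the middle of the follicle. GPR183 responds to dihydroxylated oxysterols and draws activated B cells to the outer follicle, and B cells lower it as they enter the germinal center. TBXA2R couples to Gαq and to Gα12/13 and was introduced here so that Gα13 could be switched on by an added ligand.

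Of the 7 receptors, S1PR1 and P2RY8 fell and GPR183 rose in the libraries labelled GNA13-deficient. S1PR1 was 37.9% lower, P2RY8 was 35.0% lower and GPR183 was 1.44-fold higher. In bulk RNA, fewer cells with a transcript and less of it per cell cannot be told apart. S1PR4, the most abundant receptor of the group per transcript length, and the low S1PR2 and TBXA2R did not pass the test, and S1PR3 was listed at 0 in every library. The test was limma on the deposited log2 values, with Benjamini-Hochberg adjustment over the 16945 genes with a value above 0, the lowest listed, in 2 or more libraries, and a threshold of 0.05 on the adjusted p. Of all genes tested, 29.7% passed it, 13.1% higher and 16.6% lower, so 3 of the 6 receptors that could be tested stands against a background in which many genes differed. The median log2 difference of the 6 receptors was -0.43, and that of all genes tested was -0.02.

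The regions upstream of the receptors that differed are shown because S1PR1 and P2RY8 fell together while GPR183 rose, and because KLF2, a zinc finger factor that binds CACCC elements and drives S1PR1 in lymphocytes, also differed between genotypes. Each line gives the 250 bases before the RefSeq transcription start, 5′ to 3′ on the strand of the gene, with CACCC or its complement GGGTG in capitals. The sequences are from RefSeq (GRCh38.p14) and matched GRCh37, the build of the deposited values, exactly and at 1 place per chromosome searched: S1PR1 at chr1:101702325-101702574 on the plus strand, P2RY8 at chrX:1656079-1656328 on the minus strand and GPR183 at chr13:99959654-99959903 on the minus strand.
S1PR1: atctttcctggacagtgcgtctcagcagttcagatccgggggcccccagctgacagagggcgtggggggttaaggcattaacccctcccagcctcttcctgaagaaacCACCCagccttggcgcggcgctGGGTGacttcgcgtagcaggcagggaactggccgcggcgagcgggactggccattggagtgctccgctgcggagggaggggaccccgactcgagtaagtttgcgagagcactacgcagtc
P2RY8: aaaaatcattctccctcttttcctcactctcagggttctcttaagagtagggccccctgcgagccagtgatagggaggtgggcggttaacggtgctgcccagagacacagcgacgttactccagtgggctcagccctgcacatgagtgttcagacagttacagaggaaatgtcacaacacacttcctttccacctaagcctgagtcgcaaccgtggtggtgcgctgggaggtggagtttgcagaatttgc
GPR183: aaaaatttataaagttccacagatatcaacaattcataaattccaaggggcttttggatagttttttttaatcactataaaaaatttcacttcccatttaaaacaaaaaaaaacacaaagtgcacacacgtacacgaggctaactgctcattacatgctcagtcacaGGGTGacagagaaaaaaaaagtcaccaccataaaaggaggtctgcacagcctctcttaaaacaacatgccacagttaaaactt
The S1PR1 stretch holds a CACCC at -142 and a GGGTG at -120 from the RefSeq start. GENCODE starts the S1PR1 gene 154 bases further upstream, so both of these lie inside the gene as GENCODE draws it. The GPR183 stretch holds a GGGTG at -83. P2RY8 has no match before its start and a CACCC at 31, where the first transcribed base is 1 and the base before it is -1. The receptors that did not pass or were not tested held 6 matches (S1PR4), 5 (TBXA2R), 2 (S1PR2) and 0 (S1PR3) in windows of 250 bases before to 50 after the start. CACCC on either strand is common: 59.8% of 34796 distinct RefSeq promoter windows of 300 bases (250 before and 50 after a start) held it. None of the 7 receptors held GTAAACA, TTCNNNGAA or CACGTG on either strand in such a window, letters that FOXO factors, BCL6 and MYC are known to bind, and these were found in 3.42%, 7.67% and 7.21% of all windows. GC content was 36.7% in the window of GPR183, 64.7% in that of S1PR1 and 57.0% in that of P2RY8, with a median of 58.7% over all windows. P2RY8 has a second RefSeq start, whose window held 46.3% GC and no CACCC. A match of letters is a description and was not tested as a binding site.

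The deposited totals of mapped reads lay between 29209544 and 31537955 per library, and the low values stepped in whole reads, so that the read counts behind the values could be recovered, except that a gene listed at 0 in the second library labelled control can hold 1 read. GNA13 itself was at 12.46 and 12.45 on the log2 scale in the pair labelled control, against 13.10 and 13.11 in the pair labelled GNA13-deficient, so that they differed by 0.65 (standard error, SE, 0.05, limma adjusted p = 0.00214). The mRNA of the targeted gene was thus higher, not lower, where the label says that it was disrupted, and every direction given here rests on the labels. The B cell identity of the line was checked with summed markers, as RPM, reads scaled to the mapped reads. The 8 B cell genes summed to 2149 to 2210 RPM in the pair labelled control and to 1895 to 1975 in the other pair. For 10 germinal center B cell genes, BCL6 and S1PR2 among them and SERPINA9 at 0, the sums were 776 to 840.5 and 695.7 to 730.8. MME made up most of these, with 16961 and 16664 reads in the pair labelled control, against 16404 and 15157. The sum therefore says little about the other members. Of the 9 tested, 0 were higher and 4 lower, so 44.4% passed against 29.7% of all genes tested. These were BCL6, LMO2, RGS13 and ELL3, which fell by 2.49, 3.7, 2.78 and 1.05 on the log2 scale. The fall of RGS13 (SE 0.60) rests on few reads, 12 and 13 in the pair labelled control, against 3 and 1. T and NK cell genes summed to 4.31 to 5.93 RPM in the pair labelled control, against 0.404 to 0.863 in the other pair, with CD3D, CD3E and CD2 listed at 0 in every library. CD4 had 115 and 175 of these reads in the pair labelled control, where it made up most of them, and 12 and 5 in the other pair. Myeloid genes summed to 8.87 to 9.04 and 1.82 to 2.29 RPM, with S100A8, S100A9 and FCGR3A at 0, and stromal and epithelial genes to 5.23 to 5.41 and 3.85 to 4.14 RPM, with KRT8 and KRT18 at 0. All of these sums differed in the direction of the S1PR1 and P2RY8 falls, and their part in the receptor differences was not tested.

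**Figure D1:**
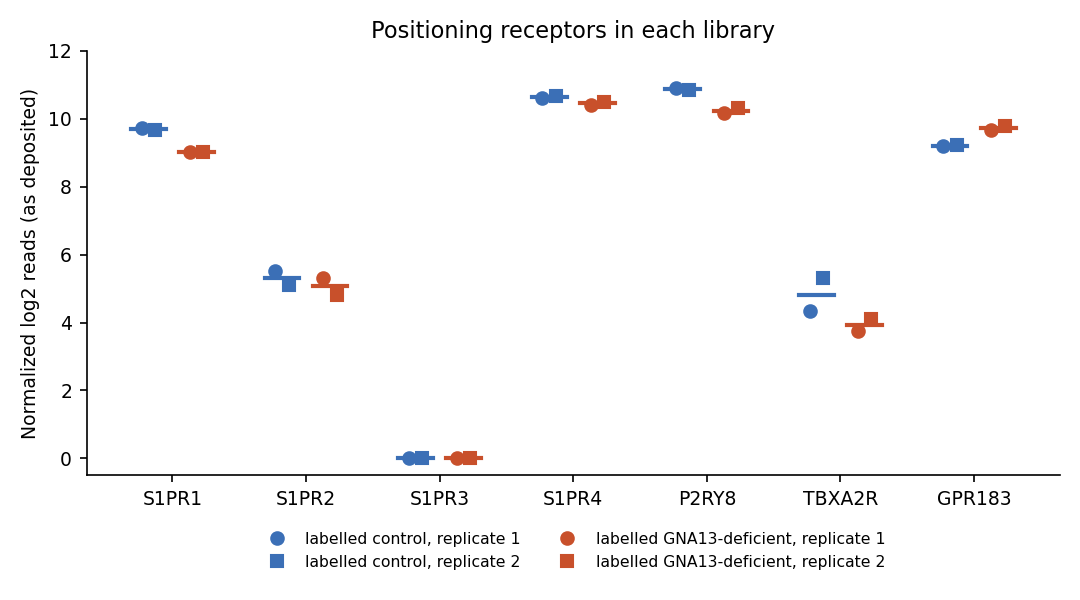
Deposited normalized log2 reads of each receptor (vertical axis) in each of the 4 libraries, with circles for replicate 1, squares for replicate 2 and a bar at each mean. S1PR1 and P2RY8 lie lower and GPR183 higher in both libraries labelled GNA13-deficient, and S1PR3 lies at 0 in all 4.

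S1PR1 (Entrez 1901) lies at chr1:101702421-101709269 on the plus strand of GRCh37, and its whole coding sequence of 1146 bases is in 1 exon. Its log2 values were 9.73 and 9.68 in the pair of libraries labelled control, against 9.01 and 9.02 in the pair labelled GNA13-deficient, from 833, 834, 504 and 483 reads. The replicates lay close together, and both libraries labelled GNA13-deficient were below both labelled control. S1PR1 fell by 0.69 on the log2 scale (SE 0.07, 95% interval -0.86 to -0.51, limma adjusted p = 0.00347).

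P2RY8 (Entrez 286530), the receptor for S-geranylgeranyl-glutathione, lies at chrX:1581474-1656078 on the minus strand, in the pseudoautosomal region, with its coding bases in 1 exon. Its log2 values were 10.89 and 10.84 against 10.17 and 10.31, from 1860, 1857, 1121 and 1180 reads. Both libraries labelled GNA13-deficient lay below both labelled control, and the gap was larger than the spread within either genotype. P2RY8 fell by 0.62 on the log2 scale (SE 0.07, 95% interval -0.81 to -0.44, limma adjusted p = 0.00485). When all genes were tested without a filter on low values, its adjusted p was 0.0529. The annotation holds a second, identical copy on chromosome Y, so how the counting treated reads that match both copies could change its level, and that treatment is not given in the sources used here.

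GPR183 (Entrez 1880) lies at chr13:99946793-99959653 on the minus strand. Its log2 values were 9.20 and 9.23 in the pair labelled control, against 9.68 and 9.79 in the pair labelled GNA13-deficient, from 576, 609, 797 and 823 reads. Here the order was the reverse of that of S1PR1 and P2RY8, with both libraries labelled GNA13-deficient above both labelled control. GPR183 rose by 0.52 (SE 0.07, 95% interval 0.33 to 0.72, limma adjusted p = 0.00867). Without a filter on low values, its adjusted p from limma was 0.04965. The gene lies on the other strand within UBAC2 and shares 0 exon bases with it. UBAC2 had log2 values of 10.77, 10.80, 10.79 and 10.79 in the same order of libraries, with a difference of 0.01.

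S1PR4 (Entrez 8698, chr19:3172344-3180330, plus strand), an S1P receptor found mainly on blood and lymphoid cells, had log2 values of 10.61 and 10.68 against 10.41 and 10.48, from 1538, 1670, 1327 and 1329 reads. The genotypes did not overlap, as was the case for 65.3% of all genes tested, and the log2 difference of -0.20 (95% interval -0.36 to -0.04) had an adjusted p of 0.0676 from limma. With limma's voom on the recovered reads, by which 29.6% of all genes passed, the difference was -0.25 and the adjusted p was 0.0311. With each library centred on its median, the difference turned to 0.01.

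S1PR2 (Entrez 9294, chr19:10332109-10342007, minus strand), the S1P receptor that couples to Gα13 and a marker of germinal center B cells, was low. Its log2 values were 5.52 and 5.11 against 5.32 and 4.81, from 45, 35, 39 and 26 reads, and the genotypes overlapped. The difference of -0.25 had a 95% interval from -1.11 to 0.62 (limma adjusted p = 0.624). It turned to 0.01 when the second library labelled GNA13-deficient was left out and to 0.22 with quantile normalization. The first exon shares 83 bases, or 2.28% of the exon bases of S1PR2, with transcripts of DNMT1 on the same strand, which had log2 values of 12.83, 12.84, 13.65 and 13.51 in the same order and differed by 0.74. How reads in that stretch were assigned is not given in the sources used here.

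TBXA2R (Entrez 6915, chr19:3594505-3606873, minus strand) is the receptor of the agonist given to all of the cells. It was listed with log2 values of 4.35 and 5.30 against 3.74 and 4.11, from 20, 40, 13 and 16 reads. The genotypes did not overlap, but the replicates labelled control lay further apart than the genotype means. The difference of -0.90 had a 95% interval from -2.06 to 0.25 (limma adjusted p = 0.201), and it was -0.43 without the second library labelled control. These reads cannot be divided between the endogenous gene and the transduced Tbxa2r, whose species is not given in the sources used here, so the value does not measure how much receptor the construct gave.

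S1PR3 (Entrez 1903, chr9:91605778-91620070, plus strand), which couples to Gαi, Gαq and Gα12/13, was listed at 0 in every library and was not tested. With 0 reads counted, the upper 95% counting limit is 3.69 reads, and a floor of 3 reads is 0.0951 to 0.103 RPM in these libraries. In the second library labelled control a listed 0 can be 1 read, so the limit there is higher. Such limits cover counting error only. S1PR5, the remaining S1P receptor, had 0, 3, 1 and 0 reads in the order control 1, control 2, GNA13-deficient 1 and GNA13-deficient 2, the order used from here on.

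**Figure D2:**
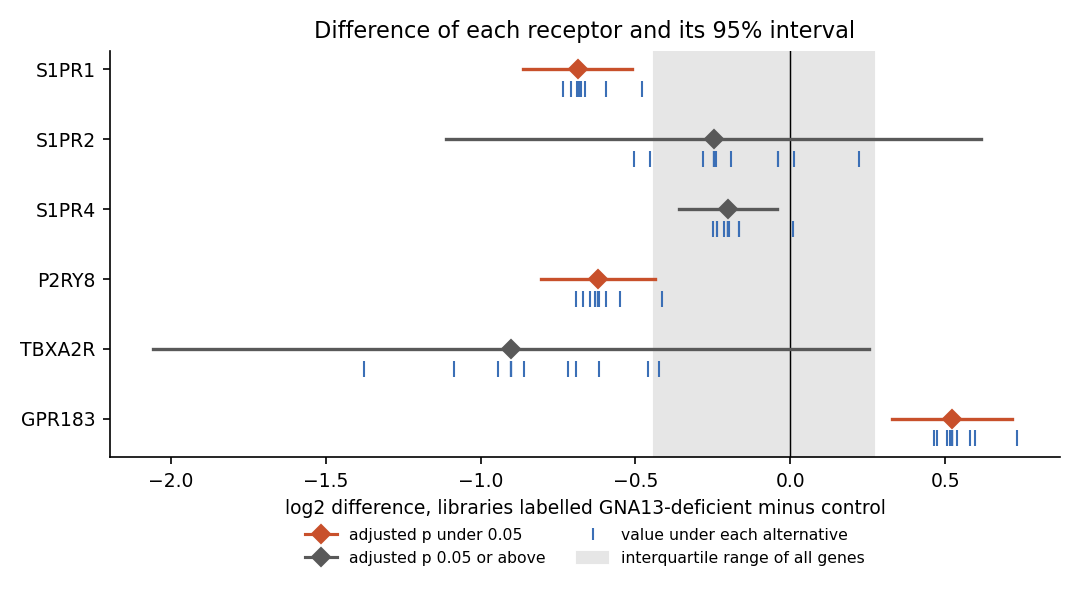
Log2 difference of each tested receptor (libraries labelled GNA13-deficient minus control, horizontal axis) with its 95% interval from limma; blue ticks are the values under each alternative processing and the grey band spans -0.44 to 0.27, the interquartile range of all genes tested. Only the intervals of S1PR1, P2RY8, S1PR4 and GPR183 exclude 0, and the alternatives of S1PR2 and S1PR4 reach the other side of 0.

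Levels were compared between receptors as RPKM, the reads of a gene scaled to the length of its longest annotated transcript and to the mapped reads of the library. In the libraries labelled control, S1PR4 stood highest at 33.8 ± 0.135 (SD, n = 2), followed by P2RY8 at 14.4 ± 0.795, GPR183 at 11.6 ± 0.172 and S1PR1 at 9.89 ± 0.528. TBXA2R at 0.370 ± 0.156 and S1PR2 at 0.364 ± 0.0836 were far lower and overlapped each other. The TBXA2R level does not measure how much receptor the transduced construct gave. In the libraries labelled GNA13-deficient, S1PR4 was at 28.4 ± 0.335, GPR183 at 16.1 ± 0.537, P2RY8 at 9.02 ± 0.424 and S1PR1 at 5.94 ± 0.115, so GPR183 and P2RY8 had changed places on this scale. S1PR2 at 0.298 ± 0.0812 and TBXA2R at 0.184 ± 0.0288 were again lowest above S1PR3. Their library values did not overlap there, but their counts of 39 and 26 against 13 and 16 are small. The order depended on the length used: by coding length P2RY8 stood above S1PR4 in the libraries labelled control, at 56.9 against 45.8 reads scaled in the same way to coding kilobases, and S1PR1 stood above GPR183, at 23.98 against 18.02. By coding length P2RY8 stayed above GPR183 in the libraries labelled GNA13-deficient as well, at 35.7 against 25.01, so their exchange was seen with the longest transcript and not with coding length.

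**Figure D3:**
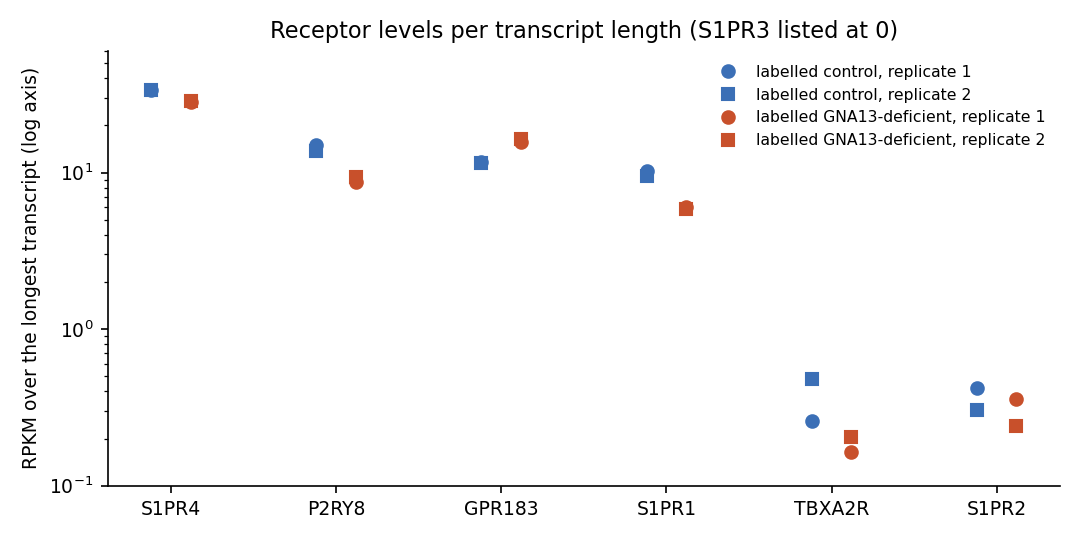
RPKM, the reads scaled to the longest transcript and to the mapped reads (vertical log axis), for the 6 receptors with reads, in each of the 4 libraries. S1PR4 is highest in every library, GPR183 and P2RY8 change places between the genotypes with this length but not with coding length, and TBXA2R and S1PR2 lie at 0.480 or lower. The TBXA2R points do not measure the receptor that the transduced construct gave.

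Among the S1P receptors by RPKM over the longest transcript, S1PR4 made up 75.9% and 77.5% of the sum in the pair labelled control, against 81.5% and 82.4% in the pair labelled GNA13-deficient. S1PR1 made up 23.1% and 21.8% against 17.4% and 16.9%. The share of S1PR1 was thus lower in both libraries labelled GNA13-deficient, while S1PR2, at 0.692% to 1.03%, overlapped between genotypes. The shares depended on the length used: by coding length, those of S1PR1 were 34.5% and 32.9% against 27.0% and 26.4%, again lower in both.

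Ratios within a library are not changed by a scaling factor for each library. The log2 ratio of GPR183 to S1PR1 was -0.53 and -0.45 in the pair labelled control, against 0.66 and 0.77 in the pair labelled GNA13-deficient, a difference of 1.21 against a largest gap of 0.107 between replicates. On the same log2 scale, GPR183 to P2RY8 went from -1.69 and -1.61 to -0.49 and -0.52. The ratio of S1PR1 to P2RY8 was -1.16 and -1.15 against -1.15 and -1.29, so the genotypes overlapped, with a difference of -0.07. S1PR4 was higher relative to both of them in the libraries labelled GNA13-deficient, by 0.49 relative to S1PR1 and by 0.42 relative to P2RY8, with no overlap between genotypes, and the ratio of GPR183 to S1PR4 differed by 0.72. Of the 6 ratios among S1PR1, S1PR4, P2RY8 and GPR183, 5 did not overlap between genotypes. Taken singly, 65.3% of all genes tested did not overlap, and no such share was computed for ratios. The ratios are made from the same values as the single-gene differences above and add no separate evidence. Each of the 5 had a two-sided exact permutation p of 0.333, the smallest that 2 against 2 libraries allow.

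The genes that make, export, sense and relay these ligands were followed in 8 lists with 121 tested genes in all, of which 12 were higher and 35 lower at an adjusted p under 0.05 from limma, so that 38.8% of them passed against 29.7% of all genes tested. Their median log2 difference was -0.09, against -0.02 over all genes tested. The counts of each list below stand against the same background, in which 13.1% of all genes tested were higher and 16.6% lower. Without the filter on low values 24 of the list genes passed, and without the variance trend 27 did.

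For S1P, 18 of 21 genes were tested, with 1 higher, 2 lower and a median of 0.03. SPHK1 and SPHK2, the kinases that make S1P, had 6, 8, 7 and 7 reads and 407, 420, 398 and 399 reads, and SGPL1, the lyase that destroys it, had 1193, 1177, 1114 and 1012 reads. None of these passed the test. LASS6 (CERS6), a ceramide synthase, had 1018, 1129, 97 and 90 reads and fell by 3.45 (SE 0.10, limma adjusted p = 0.000652). ASAH1, the acid ceramidase that releases sphingosine, fell by 0.56 (SE 0.05), from 1988 and 2053 to 1332 and 1287 reads. PPAP2A (PLPP1), a lipid phosphatase, had 82, 79, 131 and 136 reads and rose by 0.80 (SE 0.17, limma adjusted p = 0.0251). Its adjusted p was between 0.0596 and 0.102 when each of the 4 libraries was left out in turn.

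For the GPR183 ligand, CH25H and CYP7B1, the hydroxylases that make it, were listed at 0 in every library, and HSD3B7, which breaks it down, had 24, 16, 18 and 6 reads. In this list 8 of 13 genes were tested, with 0 higher, 2 lower and a median of -0.56. The 2 were the sterol exporters ABCG1, with 233, 331, 77 and 104 reads and a fall of 1.56 (SE 0.25), and ABCA1, with 140, 143, 65 and 41 reads and a fall of 1.38 (SE 0.26). Without the filter on low values their adjusted p values were 0.112 and 0.115, and without the second library labelled control that of ABCA1 was 0.0644.

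For the P2RY8 ligand and glutathione, 14 of 15 genes were tested, with 2 higher, 3 lower and a median of 0.01. ABCC1, which exports the ligand, had 2817, 3012, 2996 and 2547 reads and did not pass. GGT1, a gamma-glutamyltransferase, fell by 2.34 (SE 0.25), from 167 and 167 to 38 and 26 reads, and DPEP1, a dipeptidase, fell by 3.23 (SE 0.26), from 120 and 148 to 14 and 13 reads. GGT5, the gamma-glutamyltransferase known to break down the P2RY8 ligand, had 10, 12, 0 and 3 reads, a ratio of 0.139 with a 95% counting interval of 0.0265 to 0.461. GGT5 passed the filter on low values only with the libraries labelled control, in which it was higher. Its adjusted p of 0.0397 from limma rose to between 0.0644 and 0.0968 without the first or second library labelled control or the first labelled GNA13-deficient, and its fall was 1.76 without the last of these. The higher genes, named after their values were seen because they complete the count, were GCLM, a subunit of the enzyme that starts glutathione synthesis, at 0.51 and the glutathione transferase GSTM4 at 0.77. GGT1 and GSTM4 have near-identical relatives with which the counting could share their reads, so their values are uncertain.

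For thromboxane and related eicosanoids, 9 of 15 genes were tested, with 3 higher, 2 lower and a median of 0.14. TBXAS1, thromboxane synthase, had 14, 16, 14 and 18 reads, and PTGS2 was listed at 0 in every library. PTGS1, the constitutive cyclooxygenase, fell by 0.80 (SE 0.14, limma adjusted p = 0.0146), from 204 and 234 to 125 and 115 reads. That adjusted p was 0.0823 without the second library labelled control and 0.0519 without the second labelled GNA13-deficient. The leukotriene genes ALOX5AP and ALOX5 rose by 0.88 (SE 0.12) and 0.61 (SE 0.05), to 1698 and 1756 reads for ALOX5AP from 873 and 1111. The other 2, also named after their values were seen, were the cochaperone and prostaglandin synthase PTGES3, at 0.47, and the leukotriene hydrolase LTA4H, at -0.54.

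Other receptors for lipids or protons numbered 36, of which 23 were tested, with 1 higher, 7 lower and a median of -0.37. GPR132, a receptor activated by oxidized fatty acids, had 63, 65, 9 and 10 reads and fell by 2.68 (SE 0.30, limma adjusted p = 0.0045). GPR55, a lysophosphatidylinositol receptor, had 32, 43, 2 and 1 reads, a ratio of 0.0406 with a 95% counting interval of 0.00819 to 0.123 (limma adjusted p = 0.00376). LPAR4, a lysophosphatidic acid receptor, was the 1 that rose, with 2, 0, 5 and 11 reads and a ratio of 8.12 (95% counting interval 1.91 to 72.8). The 0 is in the second library labelled control and can be 1 read, with which the ratio is 5.42 (1.55 to 29.0). The gene passed the filter only with the libraries in which it was higher. Its adjusted p of 0.041 from limma became 0.121 without the second library labelled control and 0.135 without the second labelled GNA13-deficient.

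Of the genes for the coupling G proteins, GNA13 is described above. GNA12, which encodes the partner α subunit, had 3859, 4328, 3093 and 2862 reads and fell by 0.39 (limma adjusted p = 0.0122). Its adjusted p was 0.0566 without the second library labelled GNA13-deficient and 0.120 with libraries centred on their medians. RIC8A, the chaperone of Gα13, had 3926, 4114, 4178 and 4245 reads and did not pass.

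Of the kinases, arrestins and trafficking proteins that remove receptors from the surface, 14 were tested, with 2 higher, 3 lower and a median of -0.03. ARRB1, which encodes β-arrestin 1, had 307, 341, 24 and 19 reads and fell by 3.85 (SE 0.20, limma adjusted p = 0.00114), whereas ARRB2, which encodes β-arrestin 2, had 1020, 1028, 1624 and 1520 reads and rose by 0.69 (SE 0.06). The arrestins thus moved in opposite directions. The receptor kinase GRK5 fell by 1.04 (SE 0.08), from 679 and 686 to 321 and 310 reads, and ADRBK1 (GRK2), which desensitizes S1PR1, fell by 0.44 (limma adjusted p = 0.00758), with an adjusted p of 0.0653 under median centring. The other higher gene was the kinase GRK6, at 0.30, named after its values were seen. CD69, which takes S1PR1 off the surface, had 1253, 986, 1110 and 1038 reads, and the genotypes overlapped.

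Of the transcription factors named for control of these receptors or of the germinal center state, 16 of 17 were tested, with 0 higher, 10 lower and a median of -0.40. Thus 62.5% passed, against 29.7% of all genes tested, where 16.6% were lower. Over all genes the split depended on scaling, with 44.03% of passing genes higher as deposited and 69.1% with median centring. BCL6, the repressor that sets the germinal center program, had 1692, 1935, 293 and 323 reads and fell by 2.49 (SE 0.10, limma adjusted p = 0.00085). KLF2 had 1169, 1121, 352 and 342 reads and fell by 1.65 (SE 0.08, limma adjusted p = 0.000991). S1PR1 also fell, as did every factor of this list that passed, and a link between KLF2 and S1PR1 was not tested. PRDM1, which drives plasma cell differentiation, fell by 1.85 (SE 0.15), from 255 and 282 to 69 and 73 reads. FOXO1, which acts upstream of KLF2 in lymphocytes, had 3732, 4120, 3882 and 3391 reads, and the genotypes overlapped. The 26 genes that the naming rule picked among those that passed, GNA13 among them, kept their direction under each alternative tried, scalings included. Without the filter on low values, PPAP2A, ABCG1, ABCA1, GGT5, ALOX5AP, GPR55, LPAR4 and GNA12 had adjusted p values of 0.051 to 0.200 and no longer passed, and without the variance trend ABCG1, ABCA1, GGT5, LPAR4, GNA12 and ADRBK1 did not, at 0.0519 to 0.0967. GGT5 and PTGS1 did not pass with quantile normalization (0.0675 and 0.0563), and GGT5 and LPAR4 did not with voom (0.053 and 0.0912). With a pseudocount of 1, GGT5 and LPAR4 did not pass (0.0519 and 0.0587), nor did LPAR4 with a pseudocount of 10 (0.0528), where its difference was 0.73.

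**Figure D4:**
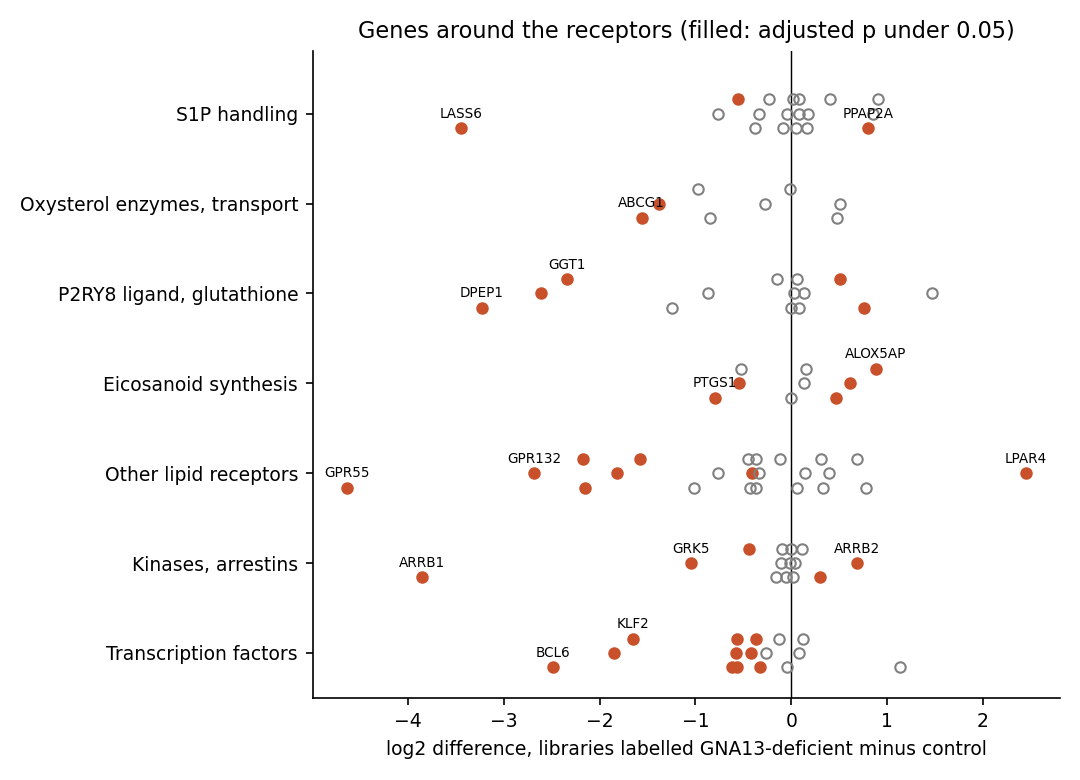
Log2 difference (libraries labelled GNA13-deficient minus control, horizontal axis) of the tested genes of 7 lists, 1 circle per gene, filled where the adjusted p from limma was under 0.05. The transcription factors hold 10 filled circles of 16, all left of 0. Of all genes tested, 29.7% passed, 13.1% higher and 16.6% lower. ARRB1 and ARRB2 lie on opposite sides of 0.

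The genes whose values across the 4 libraries, after removal of each gene's mean, lay nearest to those of a receptor were taken from 8472 genes of at least median level. For S1PR1 they were ZAK and SAV1, at Euclidean distances of 0.0326 and 0.0333 log2 units. For P2RY8 they were CYHR1 and VPS11, at 0.034 and 0.0427. For GPR183 they were SUMO2 and ILF2, at 0.0119 and 0.012. With 4 libraries in 2 genotypes such likeness is a description of these libraries.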

How the data were processed

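Reads were aligned by the authors to hg19 using STAR, and the submitters' processing notes name HTSeq. They deposited normalized log2 values for 25066 genes in 4 libraries, together with each library's total of mapped reads on a linear scale. The annotation, the strand setting of the counting and the normalization method are not given in the sources used here. The paper's methods and the sample labels differ on the read length. Of the low values (up to 400 reads), 100% came out as whole reads within a tolerance that grew with the value from 0.0025 to 0.21 reads, and the recovered reads sum to 100% of the totals. In the second library labelled control 1 read falls below 0 on the log2 scale, so a value listed at 0 there can be 1 read.

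The log2 values were compared as deposited, with no pseudocount, by limma 3.58.1 under R 4.3.3, using lmFit and then eBayes with its trend option, genotype as the only term, 2 residual degrees of freedom, two-sided tests and Benjamini-Hochberg adjustment over the 16945 genes tested, those with values over 0, the lowest listed, in 2 or more libraries. Levels per length used the longest transcript of GENCODE v44 lifted to GRCh37. Intervals of read ratios were exact and, like the floor of 3 reads, cover counting error only. Replicates differed beyond sampling noise (chi-square per gene of 11.7 and 11.4). The procedure was tested on simulated data. There it found 28 of 100 genes changed by 0.6 on the log2 scale and 73 of 100 changed by 1, with 0 unchanged genes called. A gene that did not pass can thus still differ. The simulation held far fewer changed genes than these data, so its shares do not carry over to them.

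The members and lists were chosen with earlier results of these data known. The text names the 7 receptors, GNA13, up to 3 members per list with the largest differences that passed with no overlap between genotypes, ligand and coupling genes whatever their values, and the 2 genes nearest to each receptor that passed. The alternatives tried were to drop the filter, to filter at the median of the means, to add pseudocounts of 1 and 10, quantile normalization, median centring, no variance trend, a robust prior, the replicate number as a block, voom on the recovered reads, coding length, and leaving out each library. Shares of the S1P receptors by coding length and the LPAR4 ratio with 1 read were added after the data had been seen. Of the listed symbols, 1 of 153 pathway genes had no row among the values. The 8 lists count together in the totals, and 1 of them is not reported here on its own.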

Additional observations from a re-analysis of the deposited data

How the results depend on the processing

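S1PR1 and GPR183 kept their direction and their call under every alternative tried, between -0.73 and -0.48 and between 0.47 and 0.73 on the log2 scale, and between -0.71 and -0.66 and between 0.47 and 0.58 when each library was left out in turn. GPR183 lay just under the threshold without the filter on low values (limma adjusted p = 0.04965) and without the variance trend (limma adjusted p = 0.0478). P2RY8 kept its direction throughout (-0.67 to -0.41, and -0.69 to -0.55 with a library left out) and lost its call without the filter on low values, where its difference was -0.62 with an adjusted p of 0.0529. S1PR4 passed the threshold with the replicate block (-0.20, adjusted p = 0.0274) and with voom (-0.25, adjusted p = 0.0311), lay at 0.007 under median centring, and ranged from -0.24 to -0.17 with a library left out. S1PR2 turned to 0.22 with quantile normalization and ranged from -0.51 to 0.0115 with a library left out, the latter without the second library labelled GNA13-deficient. TBXA2R ranged from -1.38 to -0.43 with a library left out and passed in no alternative. The median of the receptors was -0.34 with quantile normalization, -0.23 with median centring and -0.48 with voom, and -0.53 to -0.42 with a library left out. By coding length, 8 places in the order of levels over both genotypes differed.

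Across all genes, 1999 passed without the filter, 2718 without the variance trend and 6616 with the replicate block, against 5037, and 2975 to 3675 with a library left out (3142 without the second library labelled control and 2975 without the second labelled GNA13-deficient). Of the list genes, 24 passed without the filter and 27 without the variance trend, against 47. With median centring, the all-gene median went from -0.02 to 0.18 and the share of passing genes that were higher from 44.03% to 69.1%, and the filter at the median gave 54.6%. Over GNA13 and the list genes that the naming rule picked among those that passed, 26 in all, 316 recomputed values kept their call, 36 lost it and 0 reversed. No source pairs the libraries by replicate number. Deviations of same-numbered libraries correlated at 0.453 across 8473 genes, and the block changed the call of no receptor but S1PR4. Counts of 13 to 45 reads limit S1PR2 and TBXA2R.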
